A study of Mus musculus with 8 samples.

Results

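The Hox genes analysed were the 38 listed genes of the HoxA, HoxB, HoxC and HoxD gene clusters, among the 49315 genes of the deposited count tables. They were chosen by name, 37 by symbol and Hoxd4 by its GRCm38 position, and comprised 10 HoxA, 10 HoxB, 9 HoxC and 9 HoxD genes. RNA-seq was available for 7 sorted stromal populations, named clusters 1 to 7, and for input bone marrow cells, with 1 library each, so a difference between populations has no replicate check and no test was made. All libraries were from wild-type mice, of the strain C57BL/6J and 6 weeks old per the labels, without treatment, and the number of mice per library is not given in the sources used here. The cells were obtained from crushed femurs, tibias and ilium. How far each of these bones contributed to a library is not given in the sources used here. Per the study, all sorted cells were negative for CD31, CD45 and Ter119. Cluster 1 was further gated as CD24- Sca-1+ CD39+, cluster 2 as Ly-6C- CD39- CD24-, cluster 3 as Ly-6C+ CD24+ with CD39 and CD54 negative, and cluster 4 as Ly-6C- CD54+ CD24-. Cluster 5 was gated as CD54+ CD121b- with CD24 and Ly-6C negative, cluster 6 as CD24+ Sca-1- CD39-, and cluster 7 as CD54- Sca-1+ with CD24 and Ly-6C negative. The total count was 24205863, 25349917, 27102715, 32549319, 12833648, 31669132 and 33238133 in clusters 1 to 7 and 20162876 in the input.

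Hox genes encode homeodomain transcription factors that set position along the body axis and along the limbs. In each gene cluster the genes lie in the order of their paralogue numbers, and those of high number are used later and more distally or caudally in the embryo. In the limb skeleton, paralogues 9 and 10 act mainly in the proximal segment with the femur, paralogue 11 in the middle segment with the tibia, and paralogue 13 in the paw. Skeletal and stromal cells of the adult are known to keep a regional Hox code, and some HoxA and HoxB genes also act in haematopoietic stem and progenitor cells. In the text below, paralogues 1 to 3 are called anterior, 4 to 8 central and 9 to 13 posterior.

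The promoters of 3 HoxA and HoxD genes are shown because the first 2, Hoxd13 and Hoxa13, were the genes specific to cluster 1, whereas Hoxd8, of the same gene cluster as Hoxd13, was among the 3 members of highest median RPKM over the sorted libraries. They are the 300 bases from 250 before to 50 after the RefSeq start in GRCm38.p6, on the strand of the gene, with each CG dinucleotide in capitals. Hoxd13 lies at chr2:74667975-74668274 on the plus strand, Hoxa13 at chr6:52260831-52261130 on the minus strand and Hoxd8 at chr2:74704365-74704664 on the plus strand.
Hoxd13: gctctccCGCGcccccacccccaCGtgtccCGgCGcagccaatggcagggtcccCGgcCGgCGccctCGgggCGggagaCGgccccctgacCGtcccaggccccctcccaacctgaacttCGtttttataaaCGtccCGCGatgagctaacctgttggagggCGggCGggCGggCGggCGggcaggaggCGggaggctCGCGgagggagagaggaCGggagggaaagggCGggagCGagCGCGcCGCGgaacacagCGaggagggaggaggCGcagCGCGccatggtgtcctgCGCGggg
Hoxa13: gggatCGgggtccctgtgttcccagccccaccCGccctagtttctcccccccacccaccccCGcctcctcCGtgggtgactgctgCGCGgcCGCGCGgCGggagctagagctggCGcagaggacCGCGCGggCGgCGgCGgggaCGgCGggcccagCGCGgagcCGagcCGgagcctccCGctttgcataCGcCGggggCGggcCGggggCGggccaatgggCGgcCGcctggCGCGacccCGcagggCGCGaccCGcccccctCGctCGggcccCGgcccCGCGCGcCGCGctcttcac
Hoxd8: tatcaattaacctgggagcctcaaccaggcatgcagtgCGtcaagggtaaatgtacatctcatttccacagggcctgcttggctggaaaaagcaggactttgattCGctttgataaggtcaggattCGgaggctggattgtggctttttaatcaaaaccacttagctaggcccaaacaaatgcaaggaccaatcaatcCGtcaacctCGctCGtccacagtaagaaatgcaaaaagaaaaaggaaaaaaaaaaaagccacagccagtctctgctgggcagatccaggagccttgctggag
Hoxd13 held 37 CG dinucleotides, Hoxa13 45 and Hoxd8 6. RefSeq promoters were matched for 22 of the 38 genes, as 24 promoters, which held 4 to 45 CG with a median of 14.5, against a median of 7 over all 32851 promoters of the table. At least 10 CG were found in 17 of the 24 Hox promoters and in 43.5% of all promoters. The letters TATAAA on the gene strand were found only in the Hoxd13 promoter among the 24, and in 8.32% of all promoters. TTTATNG, a motif of posterior Hox proteins, was found on either strand in 2 of the 24 and in 10.9% of all. TGACAG, a motif of Meis proteins, was found in 2 of the 24 and in 19.2% of all, and TGATNNAT, a motif bound jointly by Pbx and Hox proteins, in 4 of the 24 and in 8.85% of all. TATAAA and the reverse strand of TTTATNG can cover the same bases.

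RPKM, the read count scaled by the exon length and by the total count of the library, was computed from the deposited counts. Where values for clusters 1 to 7 are listed together, they stand in that order. Levels of different genes are compared below only on this scale. With RPKM above 2, the threshold of the study, 12 of the 38 Hox genes passed in at least 1 sorted library, beside 25.1% of all genes. They were Hoxa5, Hoxa7, Hoxa9, Hoxa10, Hoxa11 and Hoxa13, then Hoxc6, Hoxc8, Hoxc9 and Hoxc10, then Hoxd8 and Hoxd13. None of the 10 HoxB genes and none of the 7 anterior genes passed, against 5 of the 15 central and 7 of the 16 posterior genes. Hoxa10 and Hoxc10 passed in all 7 sorted libraries, beside 14.5% of all genes. By the median RPKM over the sorted libraries, Hoxc10 was highest with 10.5, followed by Hoxa10 with 5.50, Hoxd8 with 3.25, Hoxa11 with 2.55 and Hoxc9 with 2.41. Close to the threshold, Hoxa13 reached 2.005 and Hoxa7 2.05 at most, whereas Hoxd9 with 1.66 and Hoxc11 with 1.47 did not pass. There were 15 members with exon positions that overlapped another deposited gene, and where the strand of the reads is unknown such genes cannot be fully told apart.

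**Figure D1:**
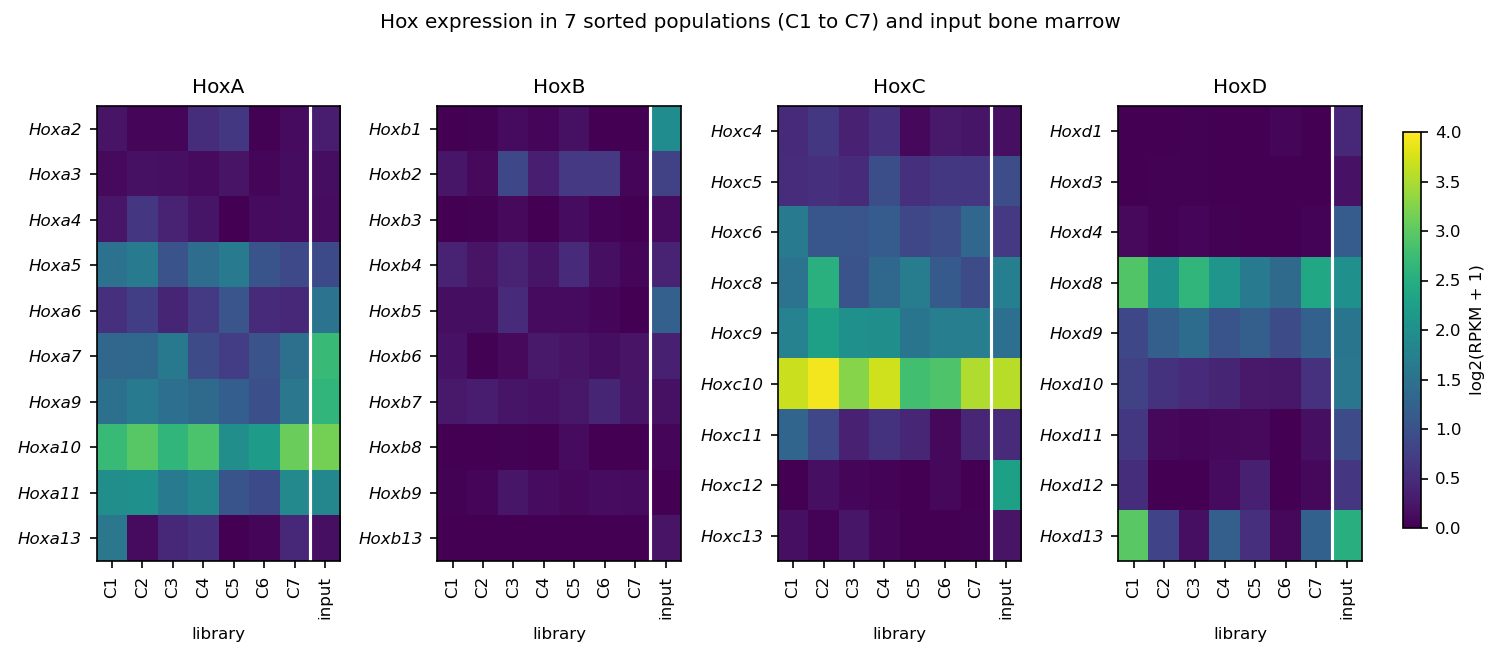
Heatmap of log2(RPKM + 1) for the 38 Hox genes (rows, by gene cluster and paralogue number) in the libraries of clusters 1 to 7 (C1 to C7) and the input (columns; the white line sets off the input). Hoxc10 and Hoxa10 are bright in every library, the HoxB genes are dark in the sorted libraries, and Hoxd13 is brightest in C1.

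The labels were compared with marker genes. Col1a1, a collagen of bone and stroma, was present in every sorted library, from RPKM 1962 in cluster 4 to 15950 in cluster 6, and reached 691 in the input. Ptprc, which encodes CD45, was at RPKM 1.69 to 9.26 in the sorted libraries, highest in cluster 7, and at 13.5 in the input, although the gates were CD45-negative. The summed RPKM of 6 pan-haematopoietic markers was 133, 125, 89.8, 168, 130, 172 and 354 in clusters 1 to 7 and 454 in the input, with Coro1a as the most abundant gene. With TMM factors, a scaling between libraries that is less affected by a few dominant genes, cluster 7 was higher than the input, at 342 against 284. The summed RPKM of 10 stromal markers was 7930 to 25000 in the sorted libraries and 11300 in the input, where Col1a1 and Col1a2 were lowest and Dcn, which encodes decorin, was highest of all libraries, at RPKM 8008 (5014 with TMM factors, within the range of the sorted libraries). The input was low in the erythroid gene Hba-a1, with RPKM 267 against 593 to 30380 in the sorted libraries. The background on unexpressed genes was higher in the input. The 95th percentile of RPKM over 991 olfactory receptor genes, which have no known role in marrow, was 2.76 in the input and 0.00892 to 0.245 in the sorted libraries. In bulk samples, fewer cells that express a gene and less RNA per cell cannot be told apart.

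The posterior genes held more of the summed Hox RPKM than the central or anterior genes in every library, which in cluster 5 rested on Hoxc10. Their share of the summed Hox RPKM was 69.3%, 68.0%, 63.5%, 70.6%, 57.0%, 64.9% and 72.6% in clusters 1 to 7 and 64.9% in the input. The counting SD of these shares was 0.78 to 1.8 percentage points, largest in cluster 5, and covers neither PCR copies nor differences between animals. Without Hoxc10, the posterior share of cluster 5 was 45.5% against 47.5% for the central genes, and without members that share exon positions 43.9% against 55.3%, whereas it stayed above the central share in the other 7 libraries under both. Paralogue 10 alone held between 32.5% in cluster 5 and 46.0% in cluster 7, with a median of 42.7%, and 31.3% in the input. The anterior share was below these in every library, from 0.600% in cluster 2 to 5.51% in cluster 5, and was 6.85% in the input. By gene cluster, HoxC held 38.3% to 52.5%, HoxA 30.3% to 39.4%, HoxD 11.6% to 29.6% and HoxB 1.26% to 6.45% in the sorted libraries. HoxC was above HoxA in all 7 with all members, in 2 by raw counts, in 1 without members that share exon positions and in 0 without Hoxc10, where cluster 1 had 21.0% for HoxC and 38.8% for HoxA. In the input, HoxA held 37.1%, HoxC 31.6%, HoxD 22.4% and HoxB 8.92%. Of the 7 anterior and of the 10 HoxB genes, Hoxb1 alone was above the 95th percentile of the olfactory receptor genes in the input, and it held 4.32% of the input's sum, while the other genes of both groups were at or below that percentile. Such shares are formed within a library and do not depend on the scaling between libraries.

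**Figure D2:**
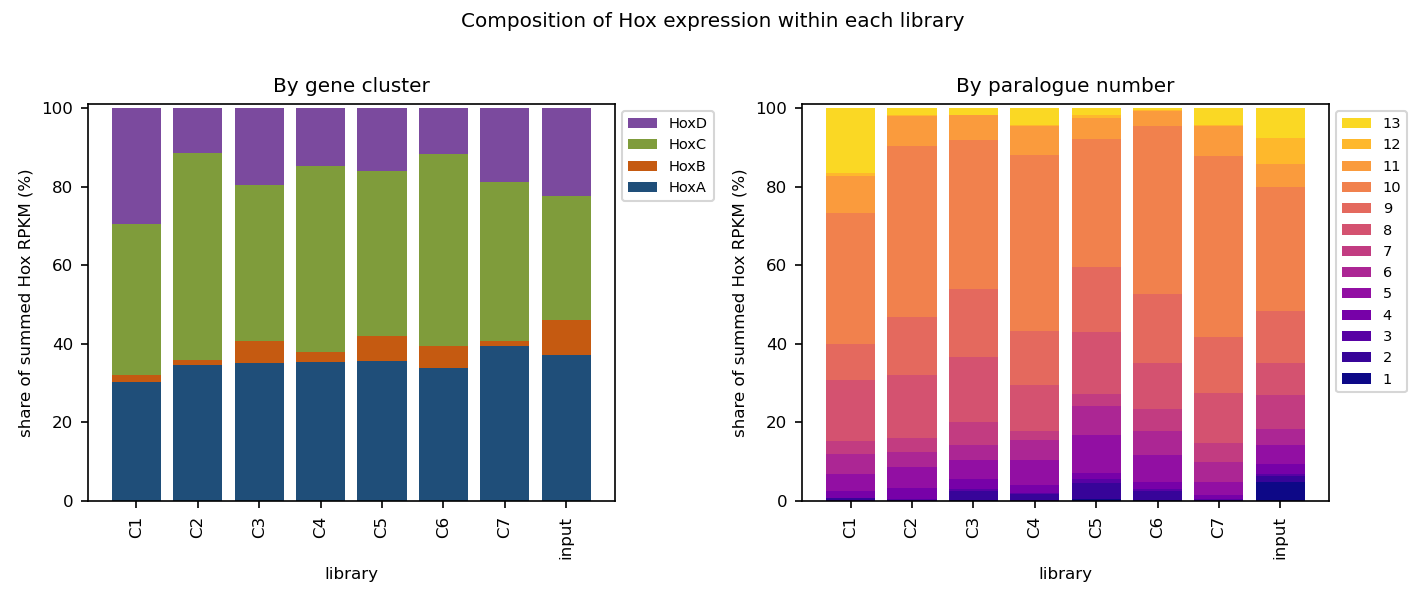
Stacked bars of the share (%) of the summed Hox RPKM in each library (C1 to C7 and input), by gene cluster (left) and by paralogue number (right). Paralogue 10 holds the largest block in every library, and C1 has the largest HoxD block (29.6%) and the largest block of paralogue 13 (16.6%).

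Hoxc10, which is expressed in the developing hindlimb and lumbar region, was the most abundant Hox gene in each of the 8 libraries. Its RPKM was 11.9, 14.3, 8.68, 12.1, 5.88, 6.42 and 10.5 in clusters 1 to 7 and 10.9 in the input. Cluster 2 was highest and clusters 5 and 6 were lowest, with a ratio of cluster 2 to cluster 5 of 2.43 (95% counting interval 2.03 to 2.93). Under edgeR's TMM factors this ratio was 1.81. Clusters 1 and 4 were neighbours in the order and did not differ beyond counting error by the total count (ratio 1.02, interval 0.913 to 1.14), whereas with TMM factors cluster 4 exceeded cluster 1 (1.16, 1.03 to 1.29). Clusters 5 and 6 did not differ beyond counting error (1.09, 0.900 to 1.33). Of the exon positions of Hoxc10, 8.70% are shared with a transcript of Hoxc5 on the same strand.

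Hoxa10, which patterns the proximal limb and the uterus, had RPKM 5.50, 6.80, 5.24, 6.27, 2.96, 3.58 and 7.54 in clusters 1 to 7 and 7.92 in the input. Among the sorted libraries, cluster 7 was highest and clusters 5 and 6 were again lowest. The ratio of cluster 7 to cluster 5 was 2.55 (2.11 to 3.11), and 1.82 with TMM factors. Clusters 7 and 2 did not differ beyond counting error (1.11, 0.994 to 1.24). Relative to Hoxc10 in the same library, Hoxa10 was at 46.3% in cluster 1 and at 71.6% in cluster 7. The third paralogue of this group, Hoxd10, was low throughout, at RPKM 0.191 to 0.705 in the sorted libraries and 1.97 in the input.

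Hoxa11, which acts in the middle limb segment, had RPKM 2.94, 3.02, 2.10, 2.55, 1.06, 0.856 and 2.68 in clusters 1 to 7 and 2.60 in the input. The sorted libraries fell into higher values in clusters 1, 2, 3, 4 and 7 and lower values in clusters 5 and 6. The step from cluster 3 to cluster 5 exceeded counting error (1.99, 1.33 to 3.04), but with TMM factors it was at the limit (1.49, 1.0 to 2.29). Of its exon positions, 35.0% overlap the antisense RNA Hoxa11os, so reads of the 2 genes cannot be fully told apart. Hoxc11, a paralogue with the hindlimb and tail as its main domain, is given in full although it stayed under the threshold and was chosen after its values were seen. Its RPKM was 1.47, 0.800, 0.292, 0.502, 0.347, 0.0625 and 0.342 in clusters 1 to 7 and 0.393 in the input. Cluster 1 was above cluster 2 beyond counting error (1.84, 1.24 to 2.77), and cluster 6, with 4 counts, was below all others.

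Hoxa9, a gene of the posterior trunk that is also active in haematopoietic progenitors, had RPKM 1.77, 2.12, 1.77, 1.62, 1.29, 0.968 and 2.02 in clusters 1 to 7 and 5.20 in the input. The input was the highest library, and among the sorted libraries only the lowest pair of neighbours, clusters 5 and 6, differed beyond counting error (1.33, 1.02 to 1.72), and with TMM factors clusters 7 and 1 did as well (1.22, 1.03 to 1.44). Hoxc9, which sets thoracic identity in motor neurons, had RPKM 2.41, 3.85, 3.04, 2.996, 1.92, 2.27 and 2.29 in clusters 1 to 7 and 1.76 in the input. Cluster 2 was above cluster 3 beyond counting error (1.27, 1.05 to 1.54).

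Of the paralogue 13 genes, Hoxd13 and Hoxa13 were highest in cluster 1. Hoxd13, which patterns the digits and the genital region, had 414, 47, 8, 106, 15, 5 and 112 counts in clusters 1 to 7 and 235 in the input. The corresponding RPKM was 6.89, 0.747, 0.119, 1.31, 0.471, 0.0636 and 1.36 in clusters 1 to 7 and 4.69 in the input, with a 95% Poisson interval of 6.24 to 7.59 in cluster 1. Cluster 1 was above each of the other sorted libraries, clusters 4 and 7 were intermediate and close to each other (1.03, 0.786 to 1.36), and clusters 3 and 6 had fewer than 10 counts. The ratio of cluster 1 to cluster 7, the next in order, was 5.08 (4.11 to 6.31), and 4.76 with TMM factors. The ratio of cluster 1 to cluster 6 was 108 (46.0 to 335), which rests on 5 counts in cluster 6. Within each library, Hoxd13 stood at 58.1%, 5.22%, 1.37%, 10.8%, 8.01%, 0.991% and 12.9% of the Hoxc10 RPKM in clusters 1 to 7 and at 43.2% in the input.

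Hoxa13, its paralogue in the paw and the hindgut, had 120, 5, 25, 38, 0, 4 and 31 counts in clusters 1 to 7 and 6 in the input. The RPKM was 2.005, 0.0798, 0.373, 0.472, 0, 0.0511 and 0.377 in clusters 1 to 7 and 0.120 in the input, with an interval of 1.66 to 2.40 in cluster 1. Cluster 1 was again the highest library, and clusters 4, 7 and 3 followed without a difference beyond counting error between neighbours. The ratio of cluster 1 to cluster 4 was 4.25 (2.93 to 6.29). Against cluster 5, with 0 counts, the exact 95% interval of the ratio had a lower bound of 16.98. In contrast to Hoxd13, the input was low in Hoxa13. The other paralogues were scarce, with Hoxb13 at 0 counts in all 7 sorted libraries and Hoxc13 at RPKM 0.180 or less.

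Paralogue 13 thus held 16.6% of the summed Hox RPKM in cluster 1 (interval 15.4% to 17.9%), whereas the other sorted libraries ranged from 0.480% (cluster 6) to 4.36% (cluster 4) and the input had 7.74%. A gene was called specific to a sorted library when its RPKM was above 2 and its RPKM + 1 was over 2-fold that of each of the other 6 sorted libraries. Among the 8 Hox genes with RPKM above 2 in cluster 1, 2 were specific to it, Hoxd13 and Hoxa13, beside 0.371% of the 10498 genes with RPKM above 2 in cluster 1. With TMM or DESeq2 size factors, Hoxa13 fell to RPKM 1.82 or less in cluster 1 and missed the threshold, whereas Hoxd13 remained. No Hox gene was specific to another sorted library, where 3 to 8 Hox genes had RPKM above 2. The share of all genes specific to those libraries is not given, so this absence is not a result about the Hox genes. Of the marker lists, the smooth muscle gene Myh11 was also specific to cluster 1, at RPKM 5.76, though not with TMM factors, and the endothelial gene Tek was highest there, at 5.31, while the 7 endothelial markers summed to RPKM 11.8 in cluster 1 and 10.5 in cluster 5, and to 10.7 and 14.1 with TMM factors. The 5 pericyte and smooth muscle markers summed to 86.0 in cluster 1 and 94.9 in cluster 7, with Acta2 as the most abundant gene. The part of such cells in the levels of Hoxd13 and Hoxa13 was not tested.

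Neighbouring genes of the HoxD cluster were also examined, chosen after their values were seen. Hoxd12, a posterior limb gene next to Hoxd13, had 27, 0, 0, 7, 9, 0 and 5 counts in clusters 1 to 7 and 28 in the input. Cluster 1 was highest by count among the sorted libraries, but its RPKM of 0.440 did not differ from the 0.277 of cluster 5 beyond counting error (1.59, 0.726 to 3.84). Hoxd11, which acts with Hoxa11 in the middle limb segment, had 58, 7, 5, 9, 4, 0 and 17 counts in clusters 1 to 7 and 76 in the input. Its ratio of cluster 1 to cluster 7 was 4.68 (2.69 to 8.58). Evx2, the homeobox gene beyond Hoxd13 at the end of the gene cluster, had 50, 4, 0, 9, 0, 0 and 8 counts in clusters 1 to 7 and 115 in the input.

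Further along, the pattern changed. Hoxd9 had RPKM 0.832, 1.31, 1.66, 1.06, 1.31, 0.887 and 1.37 in clusters 1 to 7 and 1.95 in the input. Among the sorted libraries it was lowest in cluster 1 and highest in cluster 3 (ratio 1.99, 1.38 to 2.93), whereas with TMM factors cluster 5 was highest, at RPKM 1.775 against 1.686 in cluster 3. Hoxd8, a gene of the trunk axis, had RPKM 6.504, 3.12, 5.18, 3.25, 2.10, 1.60 and 4.20 in clusters 1 to 7 and 3.04 in the input. Cluster 1 exceeded cluster 3 by the total count (1.26, 1.09 to 1.45) but not beyond counting error with TMM factors (1.12, 0.973 to 1.29), cluster 3 exceeded cluster 7 (1.23, 1.07 to 1.42), and cluster 6 was lowest of the sorted libraries. Hoxd1, Hoxd3 and Hoxd4 had at most 5 counts in any sorted library.

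**Figure D3:**
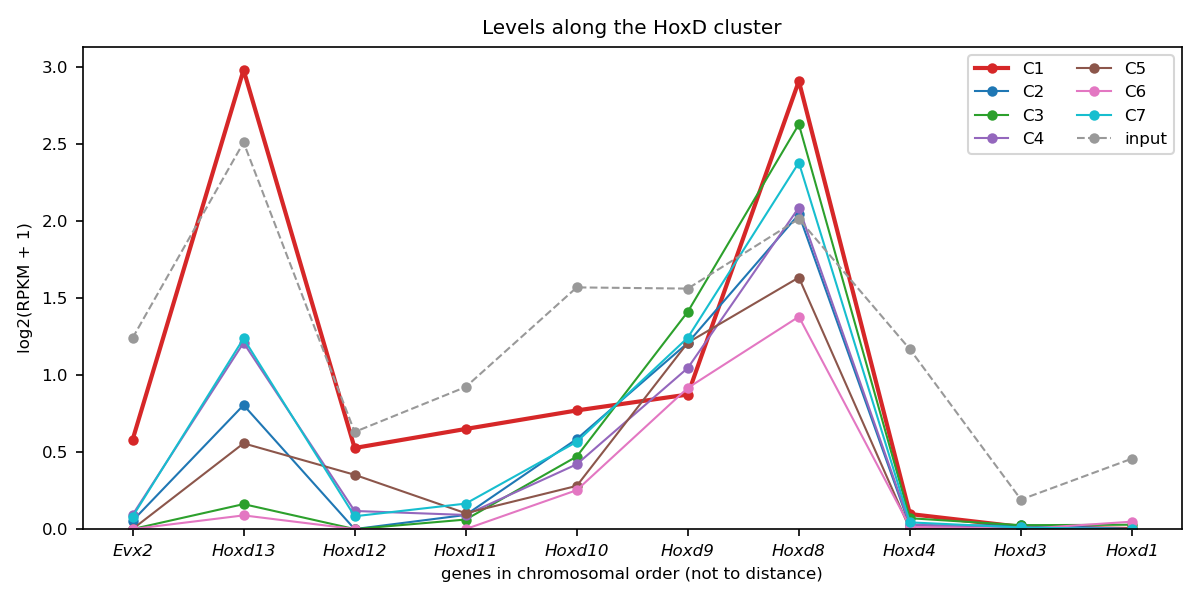
Levels as log2(RPKM + 1) of Evx2 and the HoxD genes (x axis, in chromosomal order and not to distance), with 1 line per library (C1 to C7, and the input dashed). C1 rises above the other sorted libraries at Hoxd13 and is drawn above them from Evx2 to Hoxd10, the lines cross at Hoxd9, and all sorted libraries peak again at Hoxd8. C1 did not differ beyond counting error from the next library at Hoxd12 (1.59, 0.726 to 3.84) and Hoxd10 (1.41, 0.797 to 2.53).

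Among the central HoxC and HoxA genes, the order of the libraries differed. Hoxc8, a gene of the brachial and thoracic axis, had RPKM 1.88, 4.82, 1.04, 1.54, 2.201, 1.18 and 0.892 in clusters 1 to 7 and 2.31 in the input. Cluster 2, with 346 counts, was the highest and cluster 7 the lowest. The ratio of cluster 2 to cluster 5 was 2.19 (1.71 to 2.83), and 1.63 with TMM factors. On the RPKM + 1 scale cluster 2 was under 2-fold above cluster 5, and without cluster 5, the shallowest library, Hoxc8 was specific to cluster 2. Hoxc6, which acts in the thoracic region, had RPKM 2.16, 1.098, 1.07, 1.24, 0.809, 0.918 and 1.499 in clusters 1 to 7 and 0.577 in the input. Cluster 1 exceeded cluster 7 (1.44, 1.11 to 1.87), and no other pair of neighbours differed beyond counting error.

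Hoxa5, which acts in the lung and the cervical skeleton, had RPKM 1.81, 2.19, 1.04, 1.70, 2.16, 1.06 and 0.850 in clusters 1 to 7 and 0.872 in the input. Clusters 1, 2, 4 and 5 were above clusters 3, 6 and 7, and the step between the groups, from cluster 4 to cluster 6, exceeded counting error (1.61, 1.16 to 2.23), but not with TMM factors (1.28, 0.925 to 1.78), under which cluster 5 exceeded cluster 1 (1.79, 1.24 to 2.56). The highest sorted library was cluster 2 by total count and cluster 5 with TMM factors, at RPKM 2.197 and 2.918 with those factors. Hoxa7, a central gene that is also active in haematopoietic progenitors, had RPKM 1.51, 1.55, 2.05, 0.908, 0.650, 1.04 and 1.77 in clusters 1 to 7 and 5.57 in the input. Of its exon positions, 20.4% overlap an antisense RNA. The input was above every sorted library, and the sorted libraries stayed within counting error of their neighbours except at the step from cluster 1 to cluster 6 (1.45, 1.09 to 1.93), which was lost with TMM factors (1.02, 0.762 to 1.36), under which cluster 6 exceeded cluster 4 (1.44, 1.07 to 1.96). The remaining central HoxA and HoxC genes, Hoxa4, Hoxa6, Hoxc4 and Hoxc5, had RPKM of 1.07 or less in the sorted libraries.

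**Figure D4:**
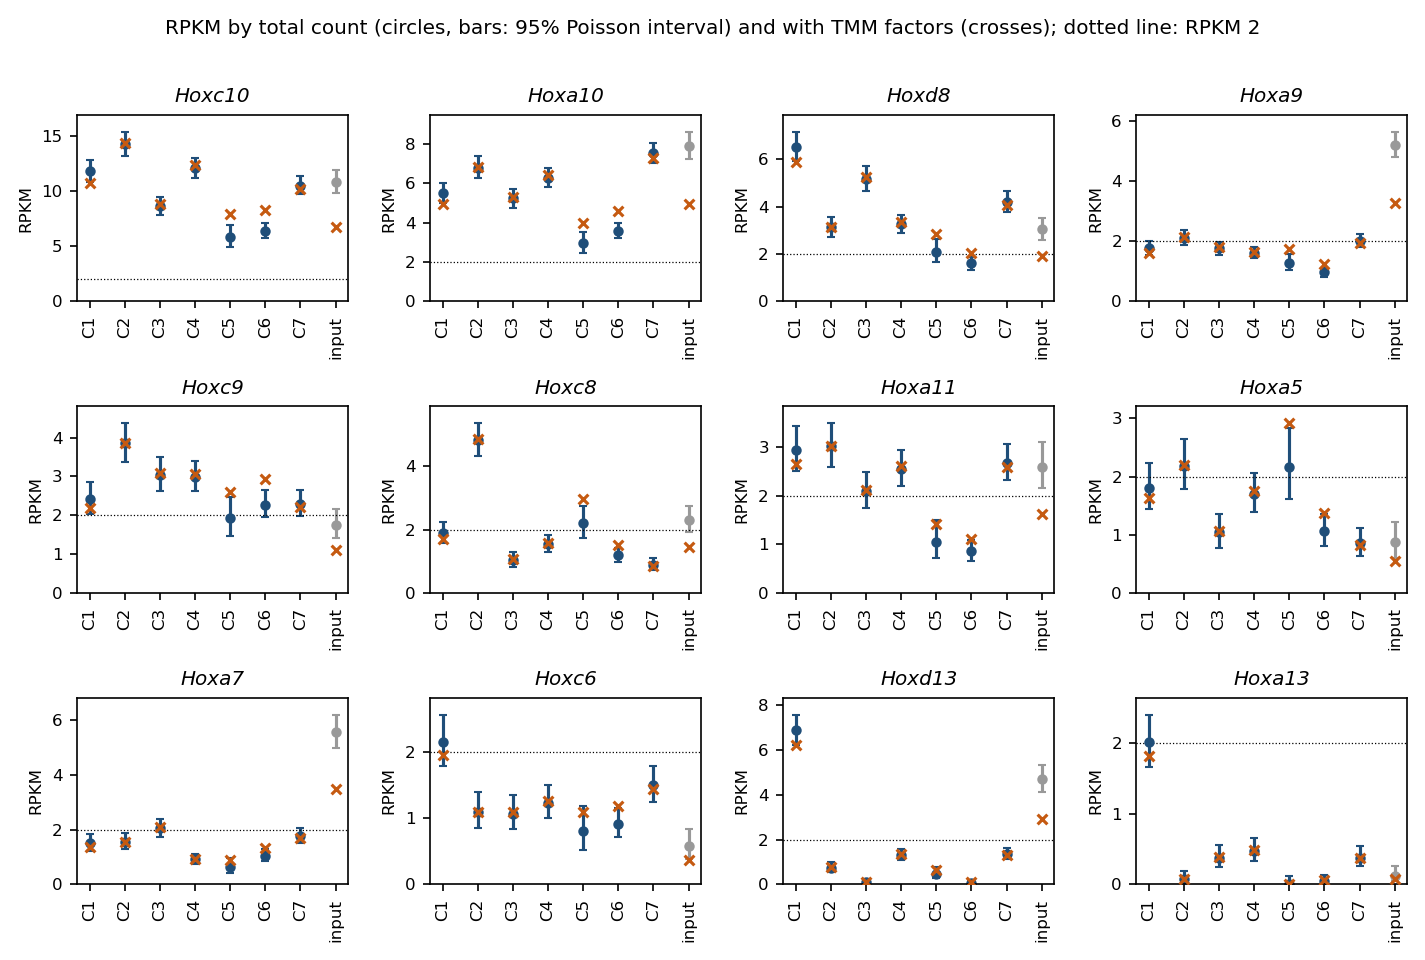
RPKM (y axis) of the 12 Hox genes above RPKM 2 in at least 1 sorted library, in the libraries of clusters 1 to 7 (C1 to C7, blue) and the input (grey). Circles are values scaled by the total count with 95% Poisson intervals, crosses are values with TMM factors, and the dotted line is RPKM 2; Hoxd13 and Hoxa13 stand out in C1, Hoxc8 in C2, and Hoxa7 and Hoxa9 in the input.

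The HoxB genes and the anterior genes were low in the sorted libraries. The highest HoxB value was that of Hoxb2, a gene of the hindbrain, which was chosen for full values after they were seen. Hoxb2 had 15, 6, 77, 29, 26, 64 and 6 counts in clusters 1 to 7 and 51 in the input. Its RPKM was highest in cluster 3, at 0.815, followed by clusters 5 and 6 without a difference beyond counting error, and cluster 6 exceeded cluster 4 (2.27, 1.44 to 3.65). An antisense RNA, Hoxb3os, overlaps 27.3% of its exon positions. Hoxb5, which marks long-term haematopoietic stem cells, had at most RPKM 0.384 in a sorted library, in cluster 3, and 1.34 in the input. Hoxb4, Hoxb6, Hoxb7 and the anterior genes Hoxa2, Hoxa3 and Hoxb3 had RPKM of 0.571 or less in the sorted libraries, the highest being that of Hoxa2 in cluster 5. At most 3 counts were found in every sorted library for Hoxb8, Hoxb13, Hoxc12, Hoxd1 and Hoxd3, so these genes were not detectable above the floor at this depth.

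A gene was said to vary when its RPKM was above 2 in a sorted library and its highest RPKM + 1 was over 2-fold its lowest among the sorted libraries. The study filtered on a fold change and an RPKM above 2, and the RPKM + 1 scale and the comparison of highest with lowest were set here. Of the 12 Hox genes with RPKM above 2, 7 varied, Hoxa10, Hoxa11, Hoxa13, Hoxc8, Hoxc10, Hoxd8 and Hoxd13, beside 70.6% of the 12360 genes tested. With RPKM + 0.1 in place of RPKM + 1, 11 varied, beside 84.6% of all genes tested. The median ratio of highest to lowest was 2.16 for the Hox genes and 2.39 for all genes tested, at medians of the highest RPKM of 3.43 and 8.27. Hoxd13 had the largest ratio, with 7.42, followed by Hoxc8 with 3.08 and Hoxa13 with 3.01. With TMM factors 4 of 10 genes varied, Hoxa5, Hoxc8, Hoxd8 and Hoxd13, beside 56.8% of all genes tested, and with DESeq2 size factors the same 4 varied, beside 55.8%. Among the 12 genes, cluster 2 held the highest value of 6, beside 22.8% of all genes tested, and cluster 1 of 4, beside 21.3%. Under TMM factors, cluster 2 held the highest value of 5, beside 20.4%, and cluster 1 of 4, beside 10.8%. Cluster 5 held the lowest value of 6, beside 46.3% of all genes tested, and cluster 6 of 4, beside 25.5%. With TMM factors, clusters 5 and 6 each held the lowest value of 4, beside 26.9% and 17.2%.

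The summed RPKM of the 38 genes was 54.1, 49.6, 37.95, 41.8, 27.8, 23.9 and 40.3 in clusters 1 to 7 and 66.3 in the input. In the input, 8 of the 38 genes exceeded the 95th percentile of the olfactory receptor genes, against 19 to 33 in the sorted libraries. The sum of the input thus includes genes at or below its higher background. Cluster 6 was lowest under each of the 4 scalings used, and the highest of the sorted libraries was cluster 1 by the total count and cluster 2 by the others. With TMM factors the sums of clusters 1 and 2 were 49.0 and 49.9, those of clusters 5 and 6 were 37.6 and 30.8, and that of the input was 41.5. TMM shifted all genes on the log2 scale by 0.43 in cluster 5 and by 0.37 in cluster 6, by -0.14 in cluster 1 and by -0.68 in the input. Rn18s-rs5, Lars2 and mmu-mir-689-2 together took 34.8% of the counts of cluster 5. Without these loci in the total, the sum of cluster 5 was 42.7 in place of 27.8, and it ranked 3 in place of 6 among the sorted libraries. Cluster 6 had the highest summed RPKM of the 10 stromal markers, 25000, and of 6 osteoblast markers, 17400. Cluster 1 had a stromal sum of 15700 and the lowest osteoblast sum, 676. Single stromal markers went different ways. The mesenchymal gene Prrx1 was lowest in cluster 6, at RPKM 2.08, and highest in cluster 1, at 13.1. Col1a1 and Col1a2 were instead highest in cluster 6, and Pdgfra, Lepr, Lum and Dcn were lowest in cluster 2. Cluster 5 had the highest summed RPKM of 5 erythroid markers, 49100 against 1180 to 10300 in the other sorted libraries, with Hba-a1 as the most abundant gene, and all 5 markers were specific to it although the gate was Ter119-negative. The part of such differences in cell makeup in the Hox sums was not tested.

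**Figure D5:**
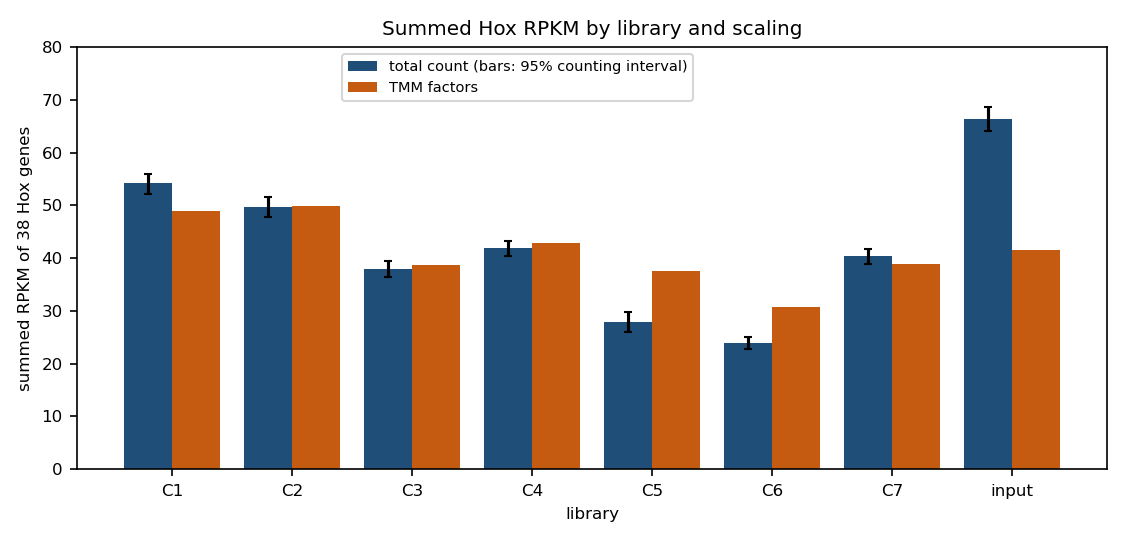
Bars of the summed RPKM of the 38 Hox genes in each library (C1 to C7 and input), scaled by the total count (blue, with 95% counting intervals) and with TMM factors (orange). C6 is the lowest sorted library under both scalings, and the input falls from 66.3 to 41.5 with TMM factors. The input sum includes genes at or below the 95th percentile of its olfactory receptor genes.

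In the input, 10 Hox genes had RPKM above 2, beside 35.6% of all genes, and 8 members exceeded the 95th percentile of the olfactory receptor genes. A sorted library was called above or below the input when RPKM + 1 differed over 2-fold with RPKM above 2 in either. No member of 14 tested was above the input in all 7 sorted libraries, beside 0.461% of all genes tested, and 3 were below it in all 7, Hoxa7, Hoxb1 and Hoxc12, beside 31.2%. Hoxb1, a gene of the hindbrain, had 134 counts and RPKM 2.86 in the input and 0 to 5 counts in the sorted libraries. Hoxc12, a posterior gene expressed in hair follicles, had 80 counts and RPKM 3.85 in the input and 0 to 3 counts in the sorted libraries. Hoxc12 (interval 3.05 to 4.79) was above the 2.76 at the 95th percentile of the olfactory receptor genes there, whereas the interval of Hoxb1 (2.40 to 3.39) spanned it. With TMM factors, Hoxc12 alone was below the input in all 7 libraries. The share of all genes below it in all 7 is not given with these factors. In a single library, 25.9% to 29.5% of the genes tested were below it. By the total count, Hoxd13 was below the input in clusters 2 to 7, beside 39.4% to 61.0% of the genes tested in a library, and not in cluster 1, where 41.6% were below the input. Hoxa9 was below it in clusters 1 and 3 to 7, beside 39.4% to 61.0%, and Hoxa10 in cluster 5, beside 61.0%. Hoxa13 and Hoxc6 were above the input in cluster 1 by the total count, beside 5.53% of the genes tested there. With TMM factors both were under RPKM 2 in cluster 1 and were not called, although their ratios to the input rose from 16.7 to 24.1 and from 3.75 to 5.42. The counting intervals by the total count were 7.43 to 46.3 and 2.47 to 5.87. In the input both genes were under the 2.76 of the olfactory receptor genes, at RPKM 0.120 and 0.577. These ratios are therefore not exact folds. With TMM factors Hoxd13 was below the input in clusters 2, 3, 5 and 6, beside 26.6% to 29.5% of the genes tested in each. Hoxa7 was below it in clusters 4 and 5 with these factors, beside 27.3% and 26.6%. The members above the input with TMM factors were Hoxd8 in clusters 1 and 3, Hoxa5 in clusters 2 and 5, and Hoxc8 and Hoxc9 in cluster 2. By the total count, Hoxa5, Hoxc8 and Hoxc9 were under the 2.76 of the olfactory receptor genes in the input, at RPKM 0.872, 2.31 and 1.76. Their ratios to the input are not exact folds either. The calls above the input with TMM factors stood beside 12.5% to 16.7% of the genes tested in clusters 1, 2, 3 and 5. The sum of the pan-haematopoietic markers was highest in the input too by the total count and highest in cluster 7 with TMM factors, and the part of these markers in Hoxa7 and Hoxa9 was not tested.

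Other deposited genes between the outermost members numbered 15 in HoxA, 9 in HoxB, 7 in HoxC and 10 in HoxD. RPKM above 2 in a library was reached by Gm15050 and Hoxa11os in HoxA, Gm11539 and ENSMUSG00000099133 in HoxB, and Mir10b in HoxD. Hoxa11os, the antisense RNA of Hoxa11, had RPKM 2.54, 1.27, 1.26, 1.58, 1.01, 0.298 and 1.27 in clusters 1 to 7 and 1.52 in the input. It was thus highest in cluster 1 and lowest in cluster 6, where Hoxa11 was lowest as well. Gm11539, which lies between Hoxb13 and Hoxb9, ranged from RPKM 2.48 in cluster 7 to 9.63 in cluster 2, with 8.82 in the input, above every HoxB member. Mir10b, a microRNA gene of the HoxD cluster, had 48 counts in the input and 0 in all sorted libraries, and ENSMUSG00000099133 had 10 and 0. Hotair (listed as Gm16258), the antisense RNA of the HoxC cluster, had 17 counts in cluster 1, 17 in cluster 4 and 0 in cluster 6.

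Genes that act with Hox proteins or on Hox loci were examined in lists. Of 9 genes for TALE cofactors, which bind DNA together with Hox proteins, 4 had RPKM above 2 in a sorted library and 3 varied, Meis3 and Pknox1 among them. Meis3 was the most abundant, with RPKM 10.5, 4.30, 11.98, 7.28, 5.33, 3.99 and 6.505 in clusters 1 to 7 and 5.42 in the input. Of 15 Polycomb genes, which keep Hox loci silent, 12 had RPKM above 2 and 5 varied, Ezh1, Ezh2, Rnf2, Cbx7 and Phc2. Rnf2, the most abundant by its highest value, reached RPKM 18.2 in cluster 7. Phc2 was above the input in all 7 sorted libraries, at RPKM 5.66 to 13.7 against 1.77. Of 9 genes of MLL and trithorax complexes, which keep Hox genes active, 7 had RPKM above 2 and 4 varied, with Psip1 the most abundant at RPKM 17.9 in cluster 1 and 7.68 in cluster 6.

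Of 16 genes of the retinoic acid pathway, a signal that induces anterior Hox genes in the embryo, 14 had RPKM above 2 and 12 varied. The binding protein gene Crabp2 was the most abundant, from RPKM 3.32 in cluster 6 to 70.1 in cluster 3. Crabp1, which encodes another retinoic acid binding protein, ranged from RPKM 0.0787 in cluster 6 to 10.8 in cluster 4. For Crabp1, cluster 5 was highest with TMM factors, at 12.87 against 11.04 in cluster 4. Aldh1a3, an enzyme of retinoic acid synthesis, was specific to cluster 3, at RPKM 21.1. Of 6 genes that mark limb position, 4 had RPKM above 2 and the same 4 varied, Pitx1, Tbx4, Shox2 and Isl1. Isl1, which acts at the start of hindlimb formation, was specific to cluster 1, at RPKM 9.34 against 0.582 to 3.81 in the other sorted libraries, and was at 15.6 in the input. Shox2, a gene of the proximal limb, was specific to cluster 2, at RPKM 15.5. With TMM factors, Aldh1a3, Isl1 and Shox2 stayed highest in the same libraries and none of them was specific. Of the hindlimb genes, Pitx1 was lowest in cluster 1, at RPKM 1.42, whereas Tbx4 was at 4.80 there, second to 5.57 in cluster 7 and above 1.15 to 3.03 in the other sorted libraries. The forelimb gene Tbx5 was highest in cluster 1, at RPKM 1.79. Of 10 genes that flank the Hox clusters, 6 had RPKM above 2 and 3 varied, Skap2, Smug1 and Cbx5. All list counts are beside the same 25.1% of genes above RPKM 2 and 70.6% that varied.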

How the data were processed

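RNA-seq libraries of 7 sorted bone marrow populations and 1 input were used. The authors deposited raw read counts per gene, in featureCounts layout with exon positions and lengths and without normalization. Per the study, reads were trimmed, aligned to mm9 by TopHat2 and quantified with Partek Flow 2.2, whereas the deposited coordinates are those of GRCm38: all 38 members overlap their RefSeq GRCm38.p6 span. The counting tool, strandedness and treatment of shared reads are not given in the sources used here. The labels state another RNA amount and library kit than the study, and describe crushed marrow.

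RPKM was computed from the total count and exon length. The study filtered on RPKM above 2 and a fold change above 2, and the RPKM + 1 scale and the comparison of the highest with the lowest library were set here. Counts have exact 95% Poisson intervals, ratios of 2 libraries exact binomial intervals, and shares a delta-method counting SD. They cover counting error only, since PCR copies were not separated. The floor of detection was set at 3 counts, the one-sided 95% limit for a count of 0, whereas the Poisson intervals are two-sided. With 1 library per population no test was made; edgeR and DESeq2 gave scaling factors only. All 38 members were named, those above RPKM 2 in every library, and for each list its counts, its most abundant gene and members of highest ratio. The members and lists were chosen with earlier results of these data known. Alternatives comprised scaling, thresholds, pseudocount 0.1, 4-fold, exon length and omitted libraries. In simulated counts of 49315 genes, with 200 genes raised 4-fold in each sorted library in turn, 197 to 200 were called specific to it, with 0 to 2 calls among the unchanged genes, of which 214 to 248 were called as varying. The raised genes had RPKM above 2 over the pooled sorted libraries, and the simulated counts held counting error only. The simulation thus checks the calling rule and not differences between animals or sorts. Scaling factors came from edgeR 4.0.16 and DESeq2 1.42.0 in R 4.3.3. All other values came from Python 3.11.15 with pandas 2.3.3, numpy 2.4.6 and scipy 1.17.1, and figures from matplotlib 3.10.9. Values of some listed genes that the naming rule selects are not reported here, though the list counts include them.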

Additional observations from a re-analysis of the deposited data

How the results depend on the processing

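No paired analysis was possible because the study holds a single library per population. With TMM or DESeq2 size factors, 4 Hox genes had RPKM above 2 in all sorted libraries in place of 2, 4 varied in place of 7, 1 was specific to cluster 1 in place of 2, and 1 was below the input in all 7 in place of 3. Of all genes tested, 70.6% varied by the total count, 56.8% with TMM and 55.8% with DESeq2 size factors. The highest over lowest summed Hox RPKM of the sorted libraries fell from 2.27 to 1.62 with TMM and 1.65 with DESeq2 size factors. At an RPKM threshold of 1, 4 genes passed in all sorted libraries. At a threshold of 5, 4 genes passed in a library, 1 in all, 4 varied, 1 was specific to cluster 1 and 1 was below the input in all 7. With a pseudocount of 0.1, 11 genes varied, beside 84.6% of all genes tested, and 1 was specific to a library other than cluster 1, Hoxc8 in cluster 2. With a 4-fold threshold, 1 varied, 0 were specific to cluster 1 and 1 was below the input in all 7. With each sorted library left out in turn, 5 to 7 genes varied. Without cluster 5, an omission chosen after seeing the data, 1 gene, Hoxc8 in cluster 2, was specific to another library. The shares of all genes are not given for the other alternatives and calls, so these changes cannot be read as particular to the Hox genes. Without Hoxc10, the member of highest sum, the shares in cluster 1 were 37.9% for HoxD, 60.7% for posterior genes and 21.3% for paralogue 13, and without members that share exon positions 43.7%, 58.6% and 26.8%. The HoxA share of the input was 46.4% by raw counts, 44.4% without Hoxc10 and 31.4% without members that share exon positions. The cause of these changes was not tested. Some orders turned. The summed Hox RPKM was higher in the input than in cluster 1 by the total count (66.3 against 54.1) and lower with TMM factors (41.5 against 49.0), and the highest sorted library was cluster 2 in place of cluster 1. Genes at or below the background of the input are part of its sum. Without 3 dominant loci in the total, the sum of cluster 5 was 42.7 in place of 27.8 and ranked 3 in place of 6. In cluster 5 the posterior share fell below the central share without Hoxc10 (45.5% against 47.5%) and without members that share exon positions (43.9% against 55.3%). HoxC was above HoxA in 7 sorted libraries with all members and in 0 without Hoxc10. Of the alternatives for the values that compare Hox genes as groups, 49 stayed within the limit set for each kind of value and 31 moved past it. The limit was 1.5 times for counts of genes, 1.1 times for the ratio of sums and the 95% counting interval for shares. Depth limits cluster 5 most, where 905 counts fell on Hox genes against 1939 or more in the other libraries.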
